A study of Mus musculus with 16 samples.

Results

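The RNAs described here are 10 long noncoding transcripts of RAW 264.7 cells, a mouse macrophage-like line transformed with Abelson leukaemia virus. They were chosen by gene symbol (Malat1, Neat1, Gas5, Snhg1, Snhg5, Snhg6, Snhg8, Snhg12, Zfas1 and Epb41l4aos) out of 52636 gene rows, and all 10 lay above the detection floor in every library. Malat1 and Neat1 are long nuclear RNAs with no small nucleolar RNA (snoRNA) guest in the annotation, and the other 8 are hosts of snoRNAs. The cells were transfected with siRNA at 25 nM for 24 h with Lipofectamine RNAiMAX. The 4 groups were a negative control siRNA, a single siRNA product against Cebpb, and each of these followed by isoproterenol, at a dose and for a time not given in the sources used here. Each group had 4 libraries, 2 from each of 2 experiments, which the series calls biological replicates; whether replicates came from separate cultures is not stated in the labels, so the p-values measure the spread between these libraries. Every library therefore came from transfected cells, and untransfected cells are not analysed here.

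Cebpb encodes C/EBPβ, a leucine zipper transcription factor of the macrophage response to inflammatory and cyclic AMP signals. Isoproterenol is an agonist of beta-adrenergic receptors, which raise cyclic AMP. Malat1 is an abundant RNA of nuclear speckles, the bodies where splicing factors gather, and Neat1 is the RNA scaffold of paraspeckles. A snoRNA host gene carries snoRNAs in its introns. Splicing frees them to guide the chemical modification of ribosomal RNA, and the spliced host RNA is left over. Several spliced hosts, Gas5 being the best known, begin with a pyrimidine tract like that of ribosomal protein mRNAs, are loaded onto ribosomes and are removed by nonsense-mediated decay.

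Start sites of Gas5, Snhg1, Snhg5 and Snhg12, which moved together, of Snhg8, which moved the other way, and of Malat1 are printed first. They are printed because they carry sequence features by which these RNAs are usually described. Each line holds 60 bases before to 25 bases after an annotated start, 5′ to 3′ along the gene's strand, from RefSeq on build GRCm38.p6. Capitals mark the cyclic AMP response element TGACGTCA, its half-site TGACG on either strand, and the longest run of C and T that touches the 10 bases before or 15 bases after the start, where that run was at least 6 bases long.
Gas5, chr1:161035106-161035190, plus strand: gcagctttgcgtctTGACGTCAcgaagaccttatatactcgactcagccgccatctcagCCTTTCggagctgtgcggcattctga
Snhg1, chr19:8723427-8723511, plus strand: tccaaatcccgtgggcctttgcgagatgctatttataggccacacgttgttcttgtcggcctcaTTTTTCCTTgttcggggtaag
Snhg5, chr9:88522873-88522957, minus strand: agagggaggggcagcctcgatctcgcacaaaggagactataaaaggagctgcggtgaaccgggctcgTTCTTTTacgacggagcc
Snhg12, chr4:132308618-132308702, plus strand: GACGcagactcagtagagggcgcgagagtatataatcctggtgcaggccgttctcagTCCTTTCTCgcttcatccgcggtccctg
Snhg8, chr3:123508312-123508396, minus strand: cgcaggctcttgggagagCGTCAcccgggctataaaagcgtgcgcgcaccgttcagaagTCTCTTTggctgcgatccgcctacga
Malat1, chr19:5802648-5802732, minus strand: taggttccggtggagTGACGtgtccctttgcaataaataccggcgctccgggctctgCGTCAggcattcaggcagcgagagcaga

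The pyrimidine run was 6 bases long at this start of Gas5, 9 at Snhg1 and at Snhg12, and 7 at Snhg5 and at Snhg8. Runs of at least 6 bases occurred at 32.2% of the 10673 promoters of tested genes, and runs of at least 7 at 21.9%. The full element TGACGTCA stood 46 bases before this start of Gas5 and in no other promoter of the group that the RefSeq table held, against 3.28% of the promoters of tested genes. In the 300 bases read per promoter, the half-site TGACG was found 3 times each in Malat1 and Snhg8 and 2 times each in Gas5, where both matches lie within the full element, and Snhg12, whose second match is cut by the left end of its printed line. At least 1 half-site occurred in 32.5% of the promoters of tested genes. The C/EBP word TTGCNNAA was found in none of the members' promoters and in 8.54% of the promoters of tested genes. A TATAAA word, left in lower case above, began 23 bases before the start of Snhg5 and 30 bases before that of Snhg8, and stood on the opposite strand 29 bases before that of Snhg1, against 6.78% of the promoters of tested genes. These matches describe letters in a window and were not tested as sites. The annotated first Gas5 start and the Zfas1 start were read but are not printed. They had runs of 3 and 4 bases and none of the words. Neat1, Snhg6 and Epb41l4aos had no entry in the promoter table.

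A second set of sequences shows a 7-base word, AACTTGT, that earlier work on these data had singled out among genes lower with the Cebpb siRNA. Among the members it occurred in the transcripts of Gas5, Snhg1, Malat1 and Neat1. It is shown in capitals for both hosts, in 29 bases of transcript.
Gas5, word at chr1:161037020-161037026, plus strand: gagctgaaaatAACTTGTagacaattttt
Snhg1, word at chr19:8726398-8726404, plus strand: cttccactgttAACTTGTactctgtgttt

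Malat1 held the word at 2 places and Neat1 at 4, and the other 6 hosts held it nowhere, in transcripts of GENCODE vM21. The word occurs in some transcript of 29.2% of 10910 tested genes. The 4 members with the word had log2 fold changes with the Cebpb siRNA, described below, of −1.15 (Snhg1), −0.57 (Neat1), −0.47 (Gas5) and 0.20 (Malat1). The 6 without it had −1.35 (Snhg5), −0.94 (Snhg12), −0.87 (Snhg6), −0.80 (Zfas1), −0.44 (Epb41l4aos) and 1.07 (Snhg8). Since the word was chosen on these libraries, these values are a description and support nothing.

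The library kit primes on stretches of A at the 3′ end of RNAs, so the annotated ends of both nuclear RNAs are printed as well, with the polyadenylation hexamer AATAAA in capitals. The annotated Malat1 transcript has 6983 bases. The mature RNA is known to be cut by RNase P upstream of the stretch printed here, which leaves it with a triple helix in place of a poly(A) tail. The short Neat1 transcript, of 3004 bases, is known to be polyadenylated.
Malat1, last 60 bases to chr19:5795690, minus strand: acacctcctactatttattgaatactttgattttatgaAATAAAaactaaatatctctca
Neat1 short transcript, last 60 bases to chr19:5842307, minus strand: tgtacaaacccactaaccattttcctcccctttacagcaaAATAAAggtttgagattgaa

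The longest run of A inside the long Malat1 transcript had 12 bases, and that inside the Neat1 transcript of 20771 bases had 7. Reads counted for either gene can therefore come from inner stretches of A as well as from a tail, and the files do not tell the isoforms apart.

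Values are reads per M reads sequenced (RPM), with anything at or below 1 RPM listed as 0. Sequencing gave 9.42 to 25.17 M reads per library and 5.81 to 15.9 M of them were assigned to genes. Each member had between 88 reads (Epb41l4aos) and 70491 reads (Malat1) per library. Cebpb, the targeted RNA, stood at 61.3 to 87.3 RPM with the control siRNA and at 11.8 to 33.1 RPM with the Cebpb siRNA, and its log2 fold change was −1.72 ± 0.20 (SE; limma adjusted p = 4.94e-07) without and −1.72 ± 0.20 with isoproterenol. All 10 macrophage markers examined were above the floor, with a summed level of 1993 to 2554 RPM with control siRNA, 2604 to 3168 RPM with control siRNA and isoproterenol, 2525 to 2786 RPM with Cebpb siRNA, and 2643 to 3090 RPM with both. All 5 fibroblast, 4 epithelial, 4 T cell and 3 B cell markers were listed at 0 in every library, and the 5 neutrophil markers summed to at most 5.84 RPM. The share of unmapped reads was 6.96% ± 0.58 (SD, n = 4) with the Cebpb siRNA and 5.45% ± 0.34 with the control siRNA (exact two-sided permutation test, p = 0.0286, the smallest that 4 against 4 allows; 0.114 adjusted over 20 comparisons of read shares; 0.0556 with libraries permuted within experiments), and its part in the results below was not tested. In such bulk RNA, fewer cells with an RNA and less of it per cell cannot be told apart.

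With the Cebpb siRNA, 7 of the 8 snoRNA hosts fell and 1, Snhg8, rose. The same held without and with isoproterenol. Neat1 was called lower and Malat1 higher in both settings, so that 2 members were called higher and 8 lower each time at an adjusted p under 0.05 (limma, all 11044 tested genes, Benjamini-Hochberg). The background was wide: without isoproterenol 31.5% of tested genes were called higher and 29.8% lower, and with it 32.1% higher and 30.0% lower. The members' median log2 fold change was −0.69 without and −0.89 with isoproterenol, beside 0.02 for all tested genes in both. Levels of the Cebpb siRNA libraries did not overlap those of the control siRNA libraries for 8 members without isoproterenol, all but Malat1 and Epb41l4aos, where 45.7% of tested genes were so separated, and for 7 with it, all but Malat1, Gas5 and Zfas1, where the share was 47.9%.

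**Figure D1:**
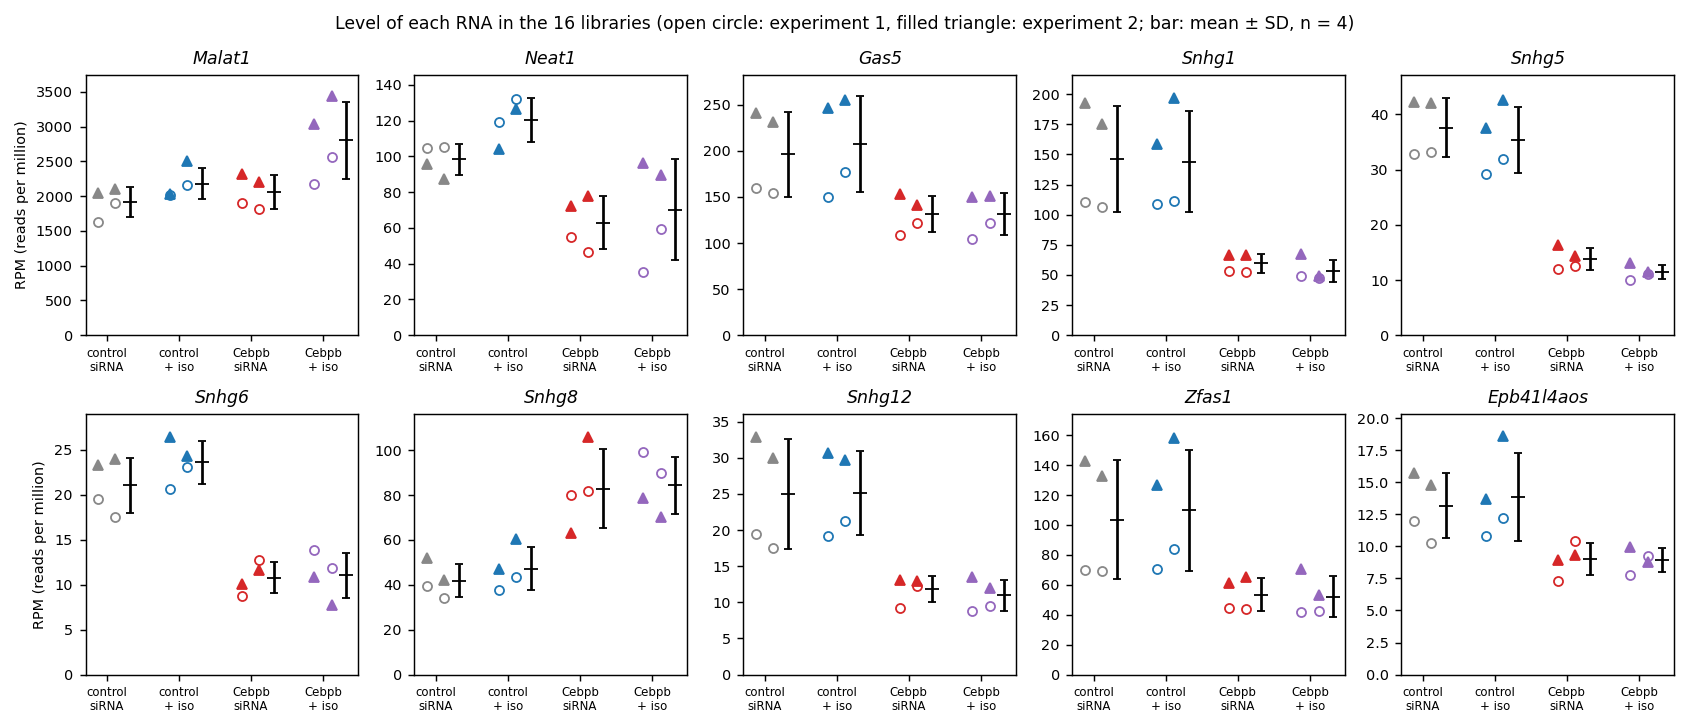
Level of each RNA in RPM (linear axes from 0) in the 16 libraries, by group; open circles are experiment 1, filled triangles experiment 2, and bars the mean ± SD of 4 libraries. Snhg5 lies at 29.3 to 42.7 RPM in the control siRNA groups and at 10.0 to 16.4 RPM in the Cebpb siRNA groups, while Snhg8 lies higher in the latter.

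Snhg5, host of Snord50a and Snord50b (chromosome 9, 88521050 to 88522929, minus strand, GRCm38), fell most of the 10. It stood at 32.8 and 33.3 RPM in experiment 1 and 42.3 and 42.1 RPM in experiment 2 with the control siRNA. With the Cebpb siRNA the values were 12.0, 12.6, 16.4 and 14.4 RPM in the same order. Every Cebpb siRNA library was thus below every control library, by 2.54-fold in the fit (log2 fold change −1.35 ± 0.07, adjusted p = 8.92e-13). With isoproterenol, 29.3, 31.9, 37.6 and 42.7 RPM in control siRNA libraries stood against 10.0, 11.2, 13.1 and 11.5 RPM, a 2.92-fold fall (−1.54 ± 0.07, adjusted p = 9.05e-14).

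Snhg1 (chromosome 19, 8723475 to 8726443, plus strand) holds 8 annotated snoRNAs, the most after Gas5. Its levels with the control siRNA were 111 and 106 RPM in experiment 1 and 193 and 175 RPM in experiment 2. They were 53.6, 52.4, 66.6 and 66.9 RPM with the Cebpb siRNA, all below the lowest control library. The fall was 2.22-fold (−1.15 ± 0.10, adjusted p = 1.04e-09). After isoproterenol the control siRNA libraries lay at 109 to 196 RPM and the Cebpb siRNA libraries at 47.8 to 67.3 RPM, a 2.51-fold fall (−1.33 ± 0.10, adjusted p = 8.77e-11). The libraries of experiment 2 were above those of experiment 1 with either siRNA when unstimulated, and the interaction of siRNA and experiment, described below for Neat1, was not called for Snhg1 (limma adjusted p = 0.138).

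Snhg12, Snhg6 and Zfas1 followed with falls of similar size. Snhg12 (chromosome 4, 132308623 to 132311024, plus strand), host of Snora44, Snora61 and Snord99 among 5 guests, stood at 19.5, 17.6, 32.8 and 30.0 RPM with the control siRNA and at 9.22, 12.2, 13.1 and 12.9 RPM with the Cebpb siRNA. The log2 fold change was −0.94 ± 0.09 (adjusted p = 1.3e-08), and −1.12 ± 0.09 with isoproterenol (adjusted p = 7.07e-10). Snhg6, host of Snord87 (chromosome 1, 9941959 to 9944118, minus strand), went from 19.5, 17.5, 23.3 and 23.9 RPM to 8.70, 12.7, 10.1 and 11.7 RPM. Its groups were separate in both settings, with −0.87 ± 0.14 (adjusted p = 1.56e-05) without and −1.05 ± 0.14 (adjusted p = 1.35e-06) with isoproterenol.

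Zfas1, an antisense RNA of Znfx1 that hosts Snord12 (chromosome 2, 167062934 to 167065862, plus strand), showed the widest gap between experiments. With the control siRNA it stood at 69.7 and 69.5 RPM in experiment 1 but at 143 and 132 RPM in experiment 2. With the Cebpb siRNA the values were 44.3, 43.5, 60.9 and 65.0 RPM, all below the lowest control library (−0.80 ± 0.10, adjusted p = 2.44e-07). With isoproterenol, 70.4, 83.6, 126 and 158 RPM stood against 41.7, 42.6, 70.9 and 52.9 RPM, and the fall was 1.95-fold (−0.96 ± 0.10, adjusted p = 1.34e-08). The overlap there was between 1 Cebpb siRNA library of experiment 2 and the lowest control library of experiment 1; within each experiment the groups were separate.

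Gas5 (chromosome 1, 161034422 to 161038539, plus strand), which holds 10 annotated snoRNAs and accumulates in growth-arrested cells, fell less. Control siRNA libraries had 159 and 154 RPM in experiment 1 and 241 and 231 RPM in experiment 2, and Cebpb siRNA libraries 109, 122, 154 and 142 RPM. The highest Cebpb siRNA library, at 153.7 RPM, and the lowest control library, at 153.9 RPM, were next to each other and came from different experiments. The fold change was 1.38-fold lower (−0.47 ± 0.06, adjusted p = 6.64e-07), and 1.48-fold lower with isoproterenol (−0.56 ± 0.06, adjusted p = 3.65e-08).

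Epb41l4aos, named as an antisense RNA of Epb41l4a (chromosome 18, 33794892 to 33795986, plus strand), had the fewest reads of the 10. Its levels were 12.0, 10.2, 15.7 and 14.8 RPM with the control siRNA and 7.34, 10.4, 8.94 and 9.34 RPM with the Cebpb siRNA. The groups overlapped by 1 library each, both in experiment 1, and the log2 fold change was −0.44 ± 0.12 (adjusted p = 0.00286). In experiment 1 alone it was −0.29 with an adjusted p of 0.125. With isoproterenol the groups did not overlap (−0.53 ± 0.12, adjusted p = 0.000565).

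Snhg8, host of the pseudouridylation guide Snora24 (chromosome 3, 123507552 to 123508404, minus strand), was the host that rose. Control siRNA libraries had 39.3, 34.2, 51.8 and 42.3 RPM and Cebpb siRNA libraries 80.2, 81.7, 63.2 and 106 RPM. Every Cebpb siRNA library was above every control library, by 2.10-fold in the fit (1.07 ± 0.15, adjusted p = 5.31e-06). With isoproterenol the values were 37.7, 43.4, 47.0 and 60.3 RPM against 99.2, 89.8, 78.7 and 70.0 RPM, again without overlap (1.90-fold, 0.92 ± 0.15, adjusted p = 2.95e-05). Snhg8 made up 7.33% of the summed RPM of the 8 hosts with the control siRNA and 22.3% with the Cebpb siRNA, and 7.89% and 23.5% with isoproterenol. The sum itself was 585 ± 154 RPM (SD, n = 4) with the control siRNA and 373 ± 46.3 RPM with the Cebpb siRNA, and 606 ± 158 and 364 ± 35.6 RPM with isoproterenol.

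**Figure D2:**
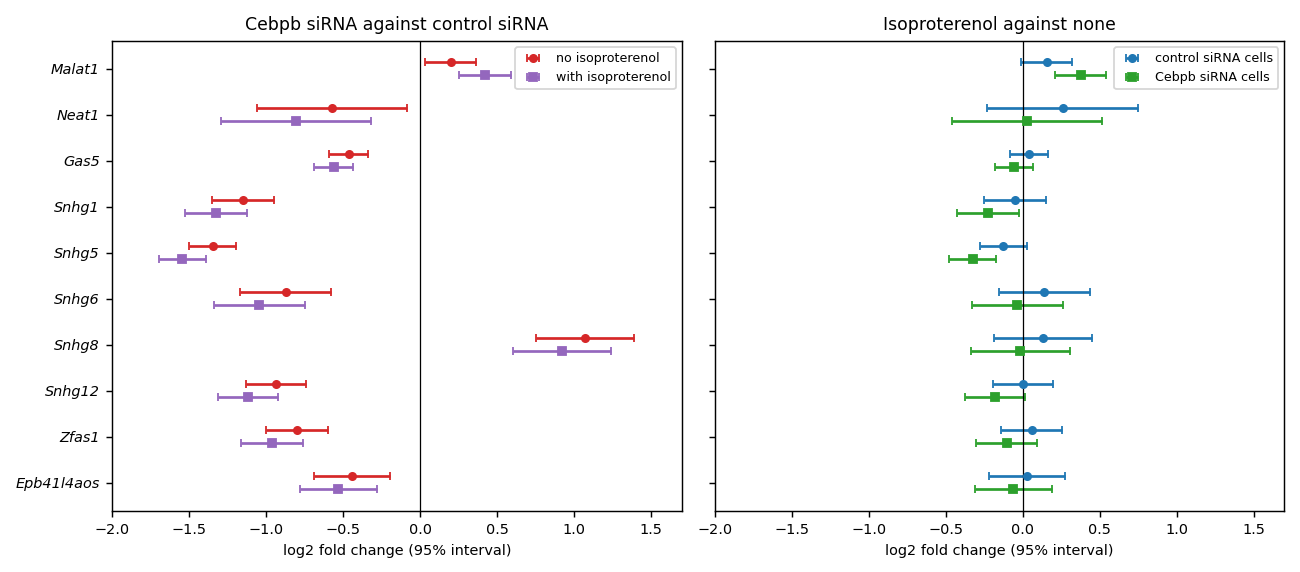
Log2 fold change of each RNA with its 95% interval from the fit over all 16 libraries, for Cebpb siRNA against control siRNA (left, without and with isoproterenol) and for isoproterenol against none (right, in control siRNA and Cebpb siRNA cells). On the left 7 hosts and Neat1 lie below 0 and Snhg8 and Malat1 above it; on the right only Malat1, Snhg5 and Snhg1 in Cebpb siRNA cells have intervals off 0, and of these Snhg1 did not pass the adjusted threshold.

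Of the 10 RNAs Malat1 differed least with the Cebpb siRNA in both settings. Malat1 (chromosome 19, 5795690 to 5802672, minus strand) had 1625, 1898, 2040.0 and 2098 RPM with the control siRNA and 1896, 1810.5, 2319 and 2211 RPM with the Cebpb siRNA. The groups overlapped, and the log2 fold change was 0.20 ± 0.08 (1.15-fold, adjusted p = 0.036). That call was lost in 6 of the 8 fits that left out 1 library of the groups compared: without control siRNA replicate 1 of experiment 1 (0.17, adjusted p = 0.117), replicate 1 of experiment 2 (0.18, 0.0909) or replicate 2 of experiment 2 (0.19, 0.0794), and without Cebpb siRNA replicate 1 of experiment 1 (0.18, 0.0881), replicate 1 of experiment 2 (0.19, 0.0755) or replicate 2 of experiment 2 (0.19, 0.0594). It was also lost on the deposited scale without further scaling (0.10, adjusted p = 0.289). With isoproterenol the difference was 0.42 ± 0.08 (1.34-fold, adjusted p = 9.6e-05), from 2017, 2168, 2033 and 2504 RPM to 2181, 2558, 3037 and 3447 RPM, and no alternative ended this call.

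Neat1 (chromosome 19, 5824708 to 5845478, minus strand), which lies beside Malat1 on the same strand, was lower with the Cebpb siRNA to an extent that depended on the experiment. In experiment 1 the control siRNA libraries had 105 and 105 RPM and the Cebpb siRNA libraries 54.9 and 46.3 RPM. In experiment 2 they had 95.8 and 87.2 RPM against 72.5 and 78.1 RPM. The log2 difference was −1.01 in experiment 1 and −0.14 in experiment 2, and in both the groups were separate. With isoproterenol, 119 and 132 RPM stood against 35.2 and 59.4 RPM in experiment 1 (−1.40), and 104 and 126 RPM against 96.3 and 89.6 RPM in experiment 2 (−0.22).

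An interaction of siRNA and experiment, added after seeing the data, gave 1.02 ± 0.17 for Neat1 (limma adjusted p = 0.00325), a term that was called for 0.833% of tested genes and for no other member. The pooled fit gave −0.57 ± 0.23 (adjusted p = 0.0403) without and −0.81 ± 0.23 (adjusted p = 0.00625) with isoproterenol. The pooled call without isoproterenol was lost in 6 of the 8 fits without 1 of its libraries: control siRNA replicate 1 (−0.48, adjusted p = 0.0926) or 2 (−0.47, 0.116) of experiment 1, and Cebpb siRNA replicate 1 (−0.58, 0.0589) or 2 (−0.46, 0.126) of experiment 1 and replicate 1 (−0.60, 0.0569) or 2 (−0.66, 0.0636) of experiment 2. In experiment 2 alone it was −0.15 (adjusted p = 0.284) without and −0.23 (adjusted p = 0.112) with isoproterenol. The knockdown of Cebpb itself was −1.93 in experiment 1 and −1.51 in experiment 2 without isoproterenol, and −1.60 and −1.85 with it.

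**Figure D3:**
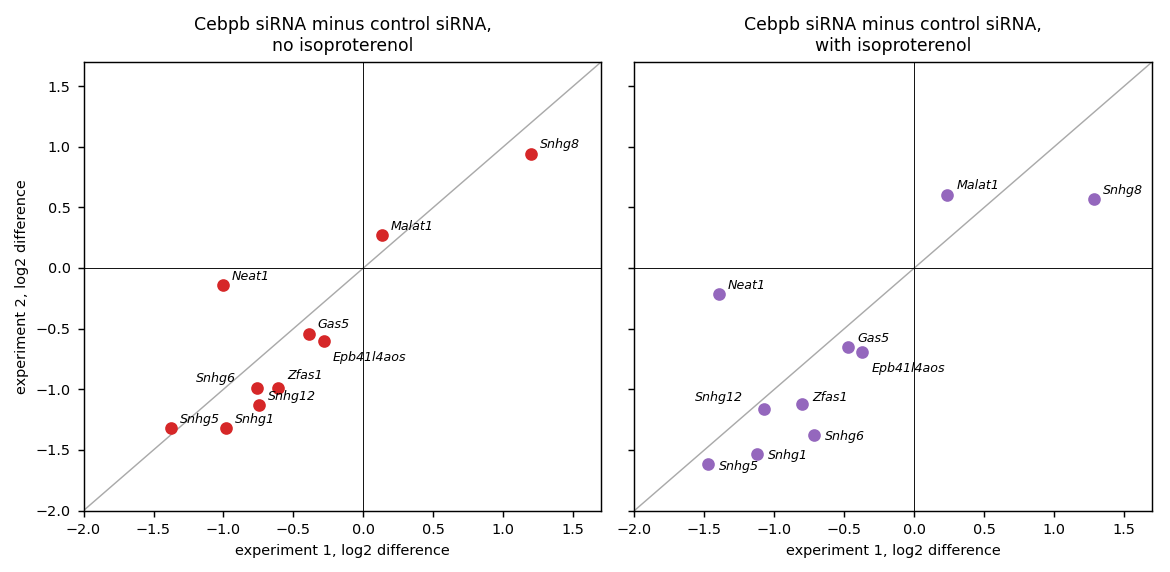
Log2 difference between Cebpb siRNA and control siRNA in experiment 1 (horizontal) and experiment 2 (vertical) for each RNA, without (left) and with isoproterenol (right); the diagonal marks equal differences. All 10 RNAs have the same sign in both experiments, and Neat1 lies farthest from the diagonal, at −1.01 and −0.14 on the left.

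All 10 members had the same sign of siRNA difference in experiments 1 and 2, without and with isoproterenol. Among the hosts, the difference in experiment 1 and in experiment 2 was −1.37 and −1.32 for Snhg5, −0.98 and −1.32 for Snhg1, −0.61 and −0.99 for Zfas1 and 1.20 and 0.94 for Snhg8, without isoproterenol. The experiments also differed in level. Relative to experiment 1, 7 members were called higher in experiment 2 and none lower, where 17.2% of all tested genes were called higher. Zfas1 differed most, by 0.73 ± 0.07 (adjusted p = 5.36e-08), followed by Snhg12 at 0.53 ± 0.07 (adjusted p = 2.8e-06), Snhg1 at 0.50 ± 0.07 (adjusted p = 8.52e-06) and Gas5 at 0.49 ± 0.04 (adjusted p = 1.64e-08). Snhg6, Snhg8 and Neat1, at 0.03, 0.10 and 0.31, did not pass the test. The labels name the experiments by number and give nothing else that set them apart.

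Isoproterenol alone moved the members little. In control siRNA cells none of the 10 passed the test, where 1.62% of tested genes did; at an unadjusted p under 0.05 there were likewise none, and limma voom on the recovered reads called none. Their log2 fold changes ran from −0.13 for Snhg5 to 0.26 for Neat1, with a median of 0.05 beside −0.0015 for all genes. Neat1 stood at 87.2 to 105 RPM without and 104 to 132 RPM with isoproterenol and was higher with it in both experiments, by 0.21 and 0.31, each time without overlap. In the fit over all 16 libraries its change was 0.26 ± 0.23 (adjusted p = 0.778, 95% interval −0.23 to 0.75), while a fit on only the 8 control siRNA libraries, which leaves out the wide spread of Neat1 in Cebpb siRNA cells, gave the same 0.26 with an adjusted p of 0.00596. Over both experiments no member's groups were separate, as against 5.62% of tested genes.

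In Cebpb siRNA cells isoproterenol raised Malat1 and lowered Snhg5, and no other member passed the test, where 5.48% of tested genes did. Malat1 went from 1896, 1810.5, 2319 and 2211 RPM to 2181, 2558, 3037 and 3447 RPM, higher in each experiment without overlap (0.38 ± 0.08, 1.30-fold, adjusted p = 0.00587). Snhg5 went from 12.0, 12.6, 16.4 and 14.4 RPM to 10.0, 11.2, 13.1 and 11.5 RPM, lower in each experiment without overlap (−0.33 ± 0.07, 1.25-fold lower, adjusted p = 0.00943). Both calls were lost without the term for the experiment (adjusted p = 0.176 for Malat1 and 0.278 for Snhg5) and in experiment 2 alone (0.0742 and 0.128). That of Snhg5 was also lost in experiment 1 alone (limma adjusted p = 0.259), without scaling (0.0501) and with only the 2 groups compared in the fit (0.111). Pooled over experiments, no member's groups were separate, as against 6.83% of tested genes. Snhg1, at −0.23 ± 0.10, had an adjusted p of 0.194, and the other 7 had changes from −0.18 to 0.03.

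Whether isoproterenol acted differently after the 2 siRNAs was tested as the difference of its effects. No member passed that test, and 0.226% of tested genes did; no member had an unadjusted p under 0.05, and limma voom called none. The difference was 0.22 ± 0.11 for Malat1 (adjusted p = 0.805, 95% interval −0.01 to 0.46) and −0.20 ± 0.10 for Snhg5 (adjusted p = 0.82, 95% interval −0.41 to 0.02). For the other 8 members it ran from −0.23 for Neat1 to −0.09 for Epb41l4aos, all below 0.

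Some of these genes share their start region with a protein-coding gene on the opposite strand, which allows a comparison within each library. The start of Zfas1 lies 81 bases from that of Znfx1, which encodes an RNA helicase of antiviral defence and overlaps it. Znfx1 stood at 65.1 ± 22.3 RPM (SD, n = 4) with the control siRNA and 55.5 ± 16 RPM with the Cebpb siRNA, and its log2 fold change of −0.11 ± 0.11 did not pass the test (adjusted p = 0.373), nor did the −0.13 ± 0.11 with isoproterenol (adjusted p = 0.297). The log2 ratio of Zfas1 to Znfx1 was 0.55, 0.65, 0.72 and 0.69 in the control siRNA libraries and 0.01, 0.06, 0.01 and −0.23 in the Cebpb siRNA libraries. It was lower in every Cebpb siRNA library, by −0.69 without and −0.83 with isoproterenol. Each of these had p = 0.0286 in an exact two-sided permutation test, the smallest that 4 against 4 libraries allows, or 0.0381 adjusted over 8 ratios. That test mixes libraries of both experiments. With libraries permuted only within their experiment, p was 0.0556 for each, the smallest that the 36 arrangements allow, so this design cannot reach 0.05 for a ratio. The ratios were added after the values had been seen, and without strand information in the sources used here reads in the stretch that both genes share cannot be told apart.

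**Figure D4:**
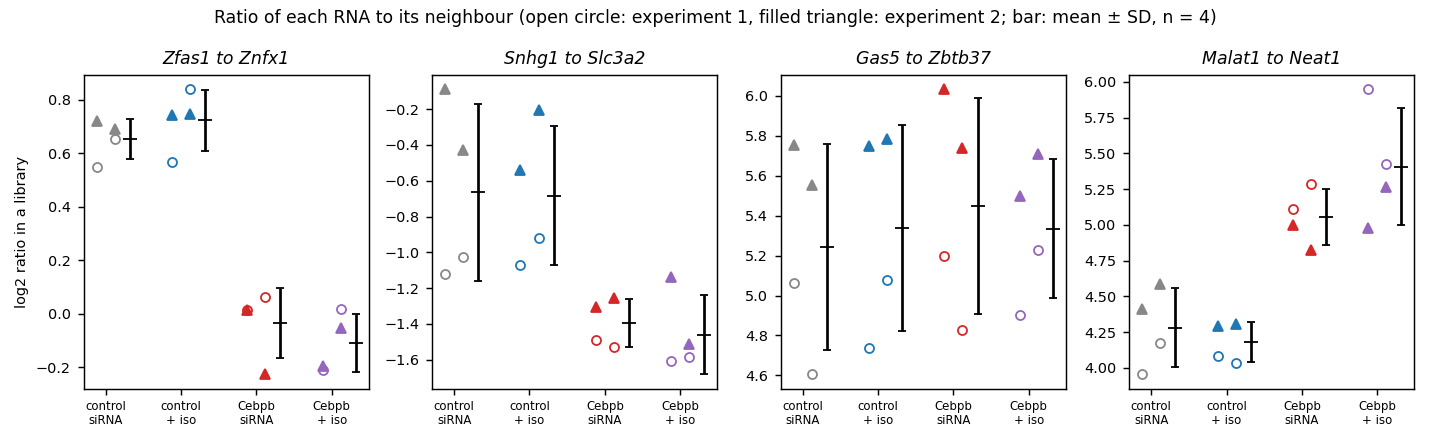
Log2 ratio, within a library, of Zfas1 to Znfx1, Snhg1 to Slc3a2, Gas5 to Zbtb37 and Malat1 to Neat1, by group; open circles are experiment 1, filled triangles experiment 2, and bars the mean ± SD of 4 libraries. The Zfas1 ratio lies at 0.55 to 0.84 in control siRNA libraries and at −0.23 to 0.06 in Cebpb siRNA libraries, with little difference between experiments, while the Gas5 ratio overlaps between the siRNAs.

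Snhg1 starts 106 bases from Slc3a2, the heavy chain of the amino acid transporter with Slc7a5. Slc3a2 fell as well, from 224 ± 16.9 RPM to 157 ± 6.67 RPM (−0.42 ± 0.06, adjusted p = 5.95e-06), but less than Snhg1, so that the log2 ratio of Snhg1 to Slc3a2 was lower with the Cebpb siRNA by −0.73 without and −0.78 with isoproterenol (exact permutation p = 0.0286, adjusted 0.0381, and 0.0556 within experiments, for each). Gas5 starts 427 bases from Zbtb37, a zinc finger gene that overlaps it and reached at most 6.32 RPM. Zbtb37 fell by −0.67 ± 0.14 (adjusted p = 0.000373), and the ratio of Gas5 to it differed by 0.21 (exact permutation p = 0.6, and 0.278 within experiments). Malat1 and Neat1 are neighbours on 1 strand, and the log2 ratio of Malat1 to Neat1 was higher with the Cebpb siRNA by 0.77 without and 1.23 with isoproterenol (exact permutation p = 0.0286, adjusted 0.0381, and 0.0556 within experiments, for each). The gap was wider in experiment 1. Without isoproterenol, control siRNA libraries had 3.95 and 4.17 against 5.11 and 5.29 with the Cebpb siRNA in experiment 1. In experiment 2 they had 4.41 and 4.59 against 4.9985 and 4.82. With isoproterenol the values were 4.08 and 4.03 against 5.95 and 5.43, and 4.29 and 4.31 against 4.98 and 5.27. Both genes had already been seen to move in opposite directions, and Snhg1 and Zfas1 had already been seen to fall more than their neighbours. The p-values of these ratios therefore add no separate evidence.

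Mature snoRNAs lack the stretches of A on which the kit primes, and few were seen. Of 31 annotated snoRNA genes inside the hosts, 29 were listed at 0 in every library. Rows were matched by symbol, so Snord80 and Snora16a, each annotated more than once, were read from the first row of their symbol. Snord87, inside Snhg6, stood at 1.25 to 3.08 RPM, just above the floor, and its change with the Cebpb siRNA, 0.38 ± 0.24, did not pass the test (adjusted p = 0.171), while Snhg6 itself fell. Gm23639, inside Epb41l4aos, stood at 8.96 ± 2.44 RPM (SD, n = 4) with the control siRNA and 3.50 ± 1.74 RPM with the Cebpb siRNA. It fell with its host, by −1.37 ± 0.28 (adjusted p = 0.000293), and by −1.21 ± 0.28 (adjusted p = 0.000882) with isoproterenol. Host and guest overlap on 1 strand, and the sources used here do not say how reads in that stretch were divided.

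Correlations of the 7 hosts that fell were taken across the 16 libraries, centred within each experiment. Pearson's r over their 21 pairs ran from 0.86 to 0.99 with a median of 0.94, and r of Snhg8 with them from −0.89 to −0.66. The 16 libraries share their siRNA grouping, and the 7 were grouped by their fall in these same libraries. The siRNA difference therefore enters these values, as does the rise of Snhg8. With the mean of each group in each experiment removed, r ran from −0.12 to 0.91 for the 21 pairs (median 0.40) and from −0.13 to 0.61 for Snhg8 with the 7 (median 0.37). These values are descriptions over 16 libraries, and each mean removed rests on 2 libraries. The 2 deviations left are then equal and opposite, so the second set of r rests on fewer independent values than 16.

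Searched over 6701 genes that averaged 10 RPM or more, the pattern most like Gas5 was that of Smco4, Ckap4 and Trappc1 (r = 0.98 for each), which had log2 fold changes of −1.15, −0.95 and −0.47 with the Cebpb siRNA without isoproterenol. Most like Malat1 were mt-Nd5, a mitochondrially encoded subunit of complex I (r = 0.94), Arhgap18 (0.92) and Pspc1, which encodes a paraspeckle protein (0.92). Most like Neat1 were Eea1, an early endosome protein (r = 0.90), Cryzl1 (0.89) and Rnf214 (0.88). With so many genes searched, these are the closest patterns and no more.

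Related genes were counted in lists, each read against the shares of all tested genes with the Cebpb siRNA: 31.5% called higher and 29.8% lower without isoproterenol, and 32.1% and 30.0% with it. Of 10 tested RNAs in a list of other snoRNA hosts, which also held microRNA hosts, 4 were called higher and 3 lower without isoproterenol. That is 40% higher and 30% lower, near the shares of all genes, with a median log2 fold change of 0.16. With isoproterenol 3 were called higher and 3 lower (30% each). Of these, Snhg10 (0.43 ± 0.19, limma adjusted p = 0.0482) was listed at 0 in all 4 stimulated control siRNA libraries. It was at 0 in 1 of 4 stimulated Cebpb siRNA libraries, so it passed the filter on low values largely through the groups where it was higher. Without isoproterenol Snhg17 fell (−1.12 ± 0.18, adjusted p = 1.33e-05), as did the microRNA host Mir17hg (−1.20 ± 0.17). Snhg20 (0.53 ± 0.10) and Mir22hg (0.67 ± 0.08) rose. With isoproterenol the rise of Snhg20 was not called (0.19 ± 0.10, limma adjusted p = 0.118). Of 15 other long noncoding RNAs 9 (60%) were called higher and 1 (6.67%) lower without isoproterenol (median 0.59), and 8 and 3 with it. Of the 9, Trp53cor1 and Mir142hg were listed at 0 in 3 of 4 control siRNA libraries and 2900097C17Rik in 1, while none of the 3 was at 0 in a Cebpb siRNA library, so these passed the filter on low values in part through the group where they were higher. Tug1, a widely expressed RNA, rose by 1.01 ± 0.10 (adjusted p = 7.33e-09) and Hotairm1, a myeloid RNA of the HoxA cluster, by 1.23 ± 0.12.

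**Figure D5:**
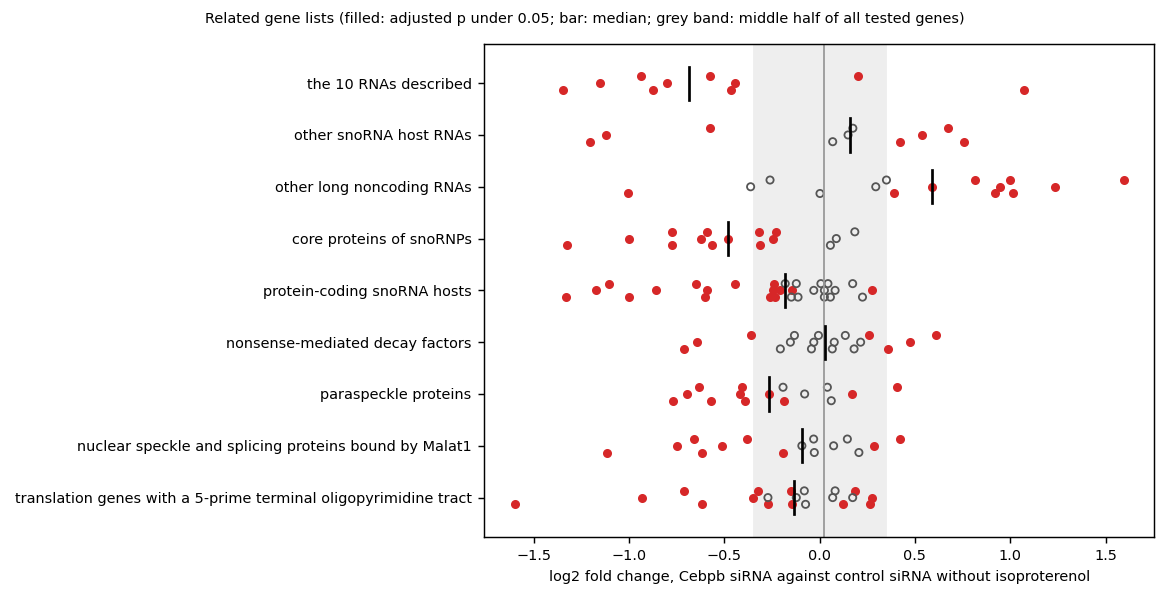
Log2 fold change with the Cebpb siRNA against the control siRNA, without isoproterenol, for the 10 RNAs and the tested genes of 8 related lists; filled points have an adjusted p under 0.05, black bars are medians, the grey line is the median of all tested genes and the grey band the range from their lower to their upper quartile. The snoRNP core proteins (median −0.48) lie on the side of the hosts that fell, and the other long noncoding RNAs (median 0.59) on the opposite side.

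Most protein partners of snoRNAs were also lower with the Cebpb siRNA. Of 15 tested core and assembly proteins of snoRNPs, the particles that snoRNAs form, 12 (80%) were called lower and none higher without isoproterenol (median −0.48), beside 29.8% and 31.5% of all tested genes, and 10 lower and 3 higher with it. Naf1, which assembles H/ACA particles, fell by −1.33 ± 0.08 (adjusted p = 3.02e-12), and Nop56 and Nop58, core proteins of C/D particles, by −1.0 ± 0.08 (adjusted p = 2.57e-10) and −0.77 ± 0.06 (adjusted p = 9.42e-11). Of 29 protein-coding hosts of snoRNAs, 15 (51.7%) were called lower and 1 (3.45%) higher (median −0.18), and 14 (48.3%) and 3 (10.3%) with isoproterenol. Rpl23 (−1.17 ± 0.06), Nap1l4 (−1.33 ± 0.08) and Gnl3 (−1.10 ± 0.08) had the smallest adjusted p.

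A list of genes described as starting with a pyrimidine tract held mostly translation genes. The list was fixed by gene name and was not checked for the runs printed above, which need only touch a window around the start. It also held genes of other functions, among them Npm1, Hnrnpa1 and Nap1l1. Of its 20 genes, 9 were called lower (45%, beside 29.8% of all tested genes) and 4 higher (20%, beside 31.5%), with a median of −0.13. With isoproterenol they were 7 (35%) and 3 (15%), beside 30.0% and 32.1%. Eif3f fell by −1.60 ± 0.08 (adjusted p = 2.94e-13) and Npm1 by −0.71 ± 0.08 (adjusted p = 9.35e-08). Factors of nonsense-mediated decay, which removes Gas5 and other spliced hosts, had 4 of 18 called higher (22.2%) and 3 lower (16.7%), both below the shares of all tested genes (median 0.03), and 6 (33.3%) and 3 (16.7%) with isoproterenol. Upf1, the central helicase of that pathway, fell by −0.65 ± 0.08 (adjusted p = 6.71e-07), and the exonuclease Xrn1 rose by 0.61 ± 0.07 (adjusted p = 1.3e-07).

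For the partners of the nuclear RNAs, 9 of 15 paraspeckle proteins (60%) were called lower and 2 (13.3%) higher without isoproterenol (median −0.27), beside 29.8% and 31.5% of all tested genes, and 10 and 1 with it. Sfpq, which Neat1 needs to form paraspeckles, fell by −0.39 ± 0.06 (adjusted p = 2.57e-06), and Tardbp by −0.77 ± 0.07 (adjusted p = 1.19e-09). Of 15 speckle and splicing proteins 7 (46.7%) were called lower and 2 (13.3%) higher (median −0.09), and 8 (53.3%) and 5 (33.3%) with isoproterenol, where 30.0% and 32.1% of all tested genes were. Srsf1, a splicing factor that binds Malat1, fell by −1.11 ± 0.07 (adjusted p = 3.5e-12), while Malat1 itself was slightly higher. In control siRNA cells, where 1.62% of all tested genes were called, isoproterenol changed 1 gene of these 8 lists, Mir22hg, at 0.31 ± 0.08 (adjusted p = 0.0352). In Cebpb siRNA cells, where 5.48% of all tested genes were called, it raised Dkc1 (0.53, limma adjusted p = 0.00171) and Prpf6 (0.31, 0.0392). It lowered Srsf3 (−0.30, 0.00213), Nap1l1 (−0.28, 0.00206), Xist (−0.34, 0.0311) and Hnrnpk (−0.22, 0.0324), and no other listed gene was called.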

How the data were processed

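Total RNA of RAW 264.7 cells was sequenced from the 3′ end; per the labels' protocols the libraries were made with QuantSeq 3′ FWD of Lexogen. The submitters' processing notes name STAR 2.5.3a and GRCm38. How reads were counted per gene, and with what use of strand, is not stated in the sources used here. As deposited by the authors, values are log2 RPM, with 1 RPM or less listed as 0. No header says so: the unit was read from the values, which gave whole reads within 0.1 read for 100% of those listed. The floor was 9 to 25 reads per library, and rows of summary shares stayed out of the tests.

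Scaling used a trimmed mean of log ratios (30% by ratio, 5% by level) with 1 common floor. The 11044 genes above that floor in 4 or more libraries were fitted with limma 3.58.1 (R 4.3.3, trend and robust estimation) on 4 groups plus experiment, with all 16 libraries, and each gene's p was adjusted by Benjamini-Hochberg (threshold 0.05). Fold changes are on this scaled log2 scale and levels are unscaled RPM. The scripts were tested on simulated data. Ratios and read shares were compared by exact permutation tests in SciPy 1.17.1, over all libraries and, chosen after seeing the data, within experiments. The text names all 10 RNAs, up to 4 genes per list by smallest adjusted p, and the 3 genes most like each of Malat1, Neat1 and Gas5. It also names the listed genes called for isoproterenol and some listed RNAs that stood at 0 in libraries of a group. The RNAs and lists were chosen with earlier results of these data known. Positions and transcripts come from GENCODE vM21. Alternatives covered scaling, filters, the floor, the experiment term, single experiments, limma voom on recovered reads, the groups in the fit, a replicate block and single libraries left out.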

Additional observations from a re-analysis of the deposited data

Results flagged for a closer look

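In Cebpb siRNA cells with isoproterenol, Snhg1 stood at 67.3 RPM in replicate 1 of experiment 2 and at 47.8 to 49.3 RPM in the other 3 libraries. The gap to the nearest library was 0.922 of the group's range, above Dixon's critical value for 4 samples. That rule takes no account of the 2 experiments, and Snhg1 was called higher in experiment 2 (0.50 ± 0.07, limma adjusted p = 8.52e-06). The flagged value was near the 66.6 and 66.9 RPM of experiment 2 in unstimulated Cebpb siRNA cells. Replicate 2 of experiment 2, at 49.3 RPM, stood with the libraries of experiment 1. The rule does not show which library departs. With 40 groups of 4 examined, such a gap is expected in about 1 of 20 groups by chance alone. That rate assumes 4 libraries drawn alike, which libraries of 2 experiments need not be.

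The siRNA difference of Neat1 differed between experiments by 1.02 on the log2 scale (interaction term, limma adjusted p = 0.00325), with a larger fall in experiment 1 in both settings.

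Outside the main measurement, the snoRNA row Snord87 inside Snhg6 reached 3.08 RPM, and Gm23639 inside Epb41l4aos reached 12.2 RPM. The other 29 annotated guests, matched by symbol, were listed at 0.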

How the results depend on the processing

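No member changed direction in any comparison where it had been called, under any alternative run. The counts of members called with the Cebpb siRNA, without and with isoproterenol, and the count of 0 for the difference of the isoproterenol effects stayed within 1.5 times under every alternative. The count for isoproterenol in Cebpb siRNA cells was 2. It was 1 without scaling, 1 in experiment 1 alone and 1 with only the groups compared in the fit. It was 0 without the experiment term and 0 in experiment 2 alone. The single-experiment fits held fewer libraries, and the cause of these differences was not tested. In control siRNA cells the count of 0 was 1, Neat1, with only the groups compared.

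Replicate numbers did not pair the libraries, since correlations of same-numbered libraries ran from −0.192 to 0.232. With the replicate block the counts were 0, 2, 9, 10 and 0, in turn for isoproterenol in control and in Cebpb siRNA cells, for the Cebpb siRNA in unstimulated and in stimulated cells, and for the difference; the call not made was Neat1 without isoproterenol (−0.57, adjusted p = 0.0648).

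Of the log2 fold changes of single members under alternatives, 30 fell on the other side of the threshold as lost calls, 22 of them for the Cebpb siRNA without isoproterenol (Malat1, Neat1 and Epb41l4aos), and 1 as a gained call. The members had 88 to 70491 reads per library, the fewest for Epb41l4aos.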
